A study of Macaca mulatta with 26 samples.

Results

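Back-splice junctions that different monkeys' muscle listed with different exons between the same ends were examined in vastus lateralis, a thigh muscle of the rhesus monkey (Macaca mulatta). A junction is the chromosome, start, end and strand at which a downstream splice donor is joined to an upstream acceptor. Junctions were selected on the listed structures: the 24 libraries with a nominal depth of 20000000 reads had to hold at least 2 combinations of circRNA type, exon sizes and exon offsets for a junction. Of 19070 junctions, 891 (4.67%) met this rule. A junction listed in 1 library cannot meet it, and of the 6992 junctions listed in at least 2 libraries the 891 were 12.7% (95% Wilson interval 12.0 to 13.5). The exon structures themselves chose these junctions, so the counts of structures are given as a description, without a test.

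Each library came from 1 monkey of the young (6 monkeys, 0.003 to 6 years), middle-aged (11 monkeys, 11.3 to 16.93 years) or old group (7 monkeys, 25.7 to 40.9 years). All monkeys ate a normal diet without restriction, belonged to a longitudinal study of diet and aging, and are labelled with no treatment. By these labels the groups differ by age. The names of some middle-aged libraries also carry an F whose meaning is not stated, and it was not used as a batch. Total RNA was digested with RNase R, which degrades linear RNA, and sequenced as paired ends. There were also 2 in-depth libraries with a nominal depth of 100000000 reads, from the ages 0.005 years (young) and 40.1 years (old), which took no part in the selection. The 24 libraries held 822 to 11561 junction reads (median 3924), and 3 reads were 0.0259% to 0.365% of a library.

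A circRNA forms when the spliceosome joins the end of an exon to the start of an exon upstream of it, and the exons between them are usually spliced together as in the linear transcript. One back-splice junction can therefore enclose several circles that differ in cassette exons, in alternative donor or acceptor sites or in a retained intron. The sequence inside the circle determines the binding sites for microRNAs and proteins that it can carry. A junction read covers the joined ends of the circle. In the deposited tables the exons between the ends are those of a transcript, either an Ensembl transcript or one assembled with Cufflinks, that the caller CIRCexplorer matched to the junction. Each library lists exactly 1 structure for a junction with all of its reads, so a library with a mixture of circles is not seen as one.

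Most of these junctions had few structures. There were 763 junctions with 2 structures, 86 with 3, 22 with 4 and 20 with 5 to 9, which made 1997 structures in all. All 891 were exonic, none switched between an exonic and an intronic structure, and none of the 309 intronic junctions found in at least 2 libraries met the rule. They were listed in a median of 4 libraries (2 to 24) with a median of 6 reads (2 to 973), and held 21521 of the 99083 junction reads (21.7%). Their genomic span had a median of 13830 nt, against 4595 nt for the 6101 other junctions listed in at least 2 libraries.

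The share of junctions with several structures was larger where more libraries listed a junction. It was 7.72% (214 of 2771) for junctions in 2 libraries, 17.2% (225 of 1305) for 5 to 8 libraries and 28.8% (38 of 132) for 19 to 24 libraries. The rule itself favours this rise, because a further library that lists a junction can add a structure but cannot remove any. The rise is therefore no evidence that widely listed junctions vary more. The share was also larger for circles with more exons. It was 5.93% (128 of 2158) for circles of 2 exons, 27.4% (229 of 836) for 6 to 9 exons and 37.3% (82 of 220) for 10 or more exons. A circle with more exons also has more places at which structures can differ, so both trends are given as a description. The number of libraries and the number of exons were not separated.

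**Figure D1:**
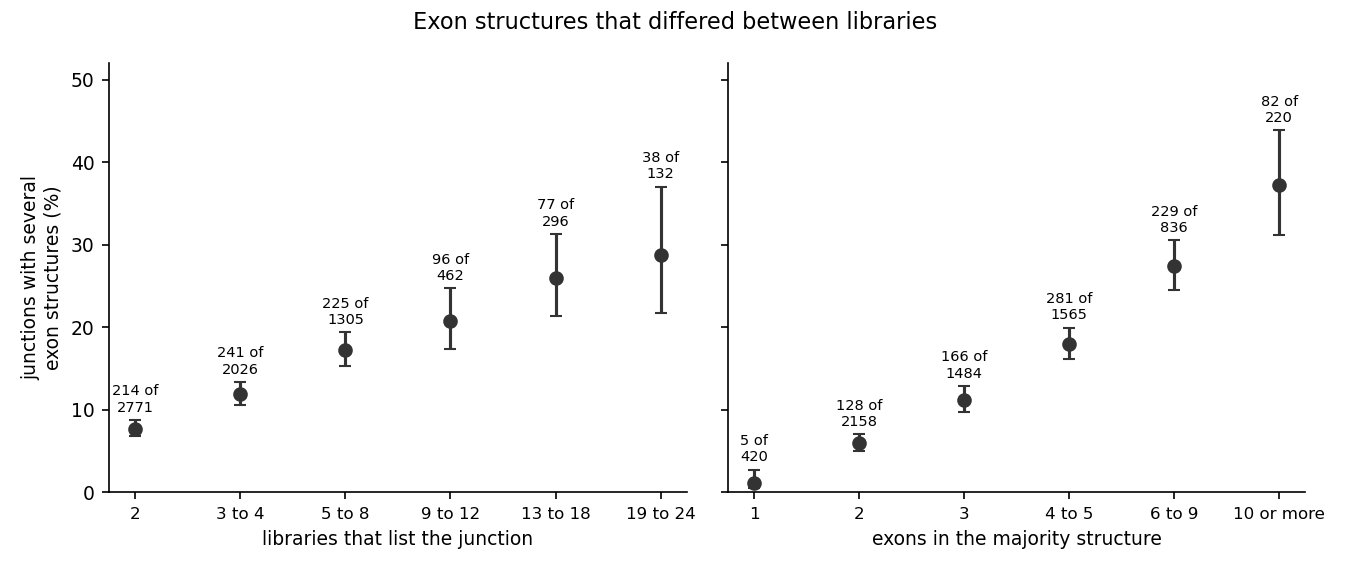
Points give the share (%) of back-splice junctions with several exon structures, with 95% Wilson intervals, by the number of libraries that list the junction (left) and by the exons in its majority structure (right). The share was 7.72% in the leftmost and 28.8% in the rightmost class of libraries, and 37.3% for circles of 10 or more exons. The selection rule itself favours a larger share where more libraries list a junction.

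The structure listed in the most libraries (on a tie, the one with the most reads) was taken as the majority structure, and the next as the second structure. Junction reads were counted on the structure that their library listed, not on inner exons that they were seen to cover. Of the reads of the 891 junctions, 4841 (22.5%) were so counted on structures other than the majority structure. Of the 1106 other structures, 868 (78.5%) were listed in 1 library and 559 had 1 read. At 477 junctions (53.5%) the second structure was listed in 1 library with 1 junction read, which is the least that the rule accepts. Junctions just outside it had 1 structure in 2 or more libraries, of which there were 6101. More support was found at 208 junctions whose 2 leading structures were each in at least 2 libraries and at 87 whose leading structures were each in at least 3 libraries. The majority structure is less certain at 265 junctions, where it and the second structure were in the same number of libraries. At 20 junctions another structure had more reads. In the 133 junctions listed in at least 12 libraries, the majority structure held a median of 83.3% of the reads, with a lowest value of 23.7%.

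Skipping of whole exons was the most frequent difference between the majority and the second structure. It was the sole difference at 433 junctions (48.6%), at 390 of them by 1 exon, at 38 by 2 and at 5 by 3 exons. The second structure was the one with the additional exon at 264 of these and the majority structure at 169. An exon boundary inside the circle moved at 284 junctions (31.9%), an intron was kept in 62 (6.96%), exons were exchanged in 20 (2.24%), and 92 (10.3%) combined several kinds. Lengths differed by a median of 95 nt for skipped exons, 18 nt for moved boundaries and 99 nt for kept introns. Over all 891 junctions the median difference was 72 nt (quartiles 24 and 123 nt, largest 3054 nt), which was a median of 11.1% of the majority structure. The second structure was longer at 500 junctions, shorter at 360 and of equal length at 31. The majority structures had a median of 4 exons and 564 nt. At the 87 junctions whose leading structures were each in at least 3 libraries, 48 differed by skipped exons (55.2%), 34 by a moved boundary (39.1%), 1 by exchanged exons and 4 by several kinds. Between the 2 leading structures none of the 87 differed by a kept intron alone, where 0 of 87 has a 95% Wilson interval up to 4.23%. At chr14:72383265-72383983, which is among the 87, a further structure kept the intron (719 nt, 3 libraries).

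Exons that were skipped had a shorter median length than those kept. The 348 distinct skipped exons had a median of 88.5 nt, against 114 nt for 1669 inner exons that both structures kept and 113 nt for 6492 inner exons of junctions with 1 structure. Exons of up to 30 nt, often called microexons, were 18 of the 348 skipped exons (5.17%, 95% Wilson interval 3.30 to 8.03). Of the 1669 exons kept they were 38 (2.28%, 1.66 to 3.11). The shortest exons listed were 2 nt among the skipped and 3 nt among the kept. A length that is a multiple of 3 leaves the reading frame of the linear transcript unchanged when the exon is skipped. Such lengths made up 47.1% of the skipped exons (95% Wilson interval 41.9 to 52.4), 39.4% of those kept in both structures (37.1 to 41.8) and 38.3% of those in junctions with 1 structure (37.1 to 39.5). Exons of neighbouring junctions can come from the same gene, so the intervals cover counting error only.

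The most frequent size of a moved boundary was 3 nt at acceptors and 6 nt at donors. A single boundary moved at 242 junctions, at 122 distinct acceptors and 69 distinct donors. A shift of exactly 3 nt was found at 23 acceptors (18.9%) and 1 donor (1.45%). Shifts of 4 nt were found at 6 acceptors and 3 donors, and shifts of 5 nt at 7 acceptors and 3 donors. Acceptors that lie 3 nt apart are known in linear transcripts as tandem acceptors. Their bases were not examined here. A shift of 6 nt was found at 6 acceptors and 10 donors. Multiples of 3 made up 54.1% of acceptor shifts and 58.0% of donor shifts, and 43.9% of acceptor shifts over 3 nt.

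**Figure D2:**
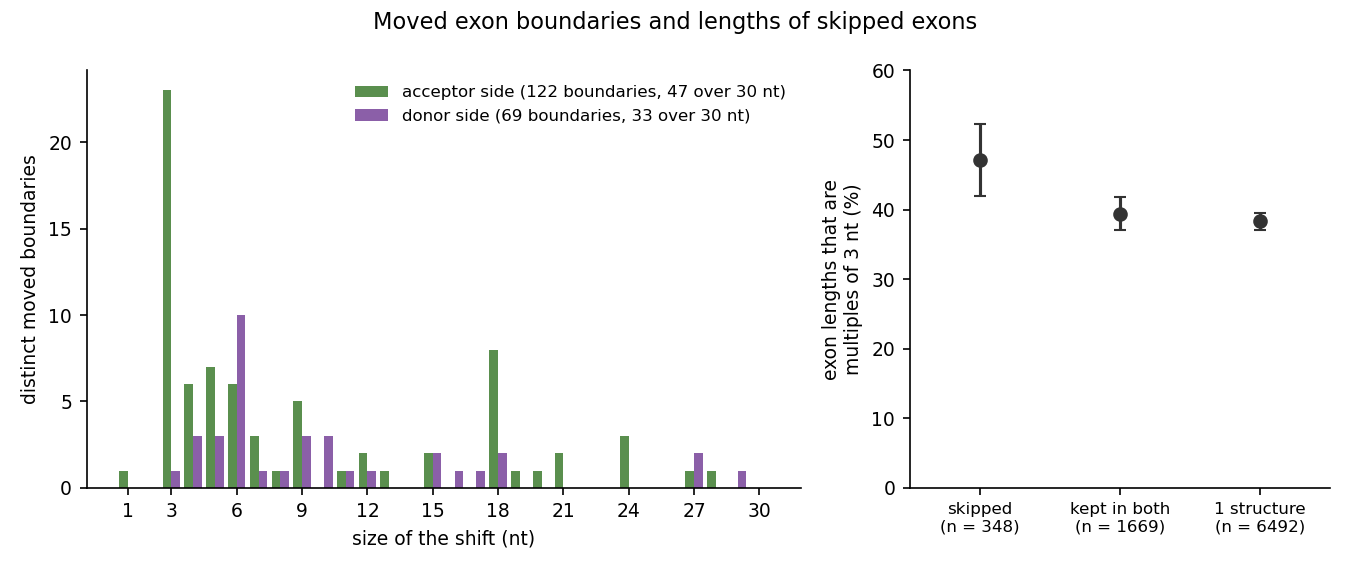
Left, the number of distinct exon boundaries by the size of the shift (nt, up to 30 nt) on the acceptor and the donor side. Right, the share (%) of exon lengths that are multiples of 3 nt with 95% Wilson intervals. The tallest bar is the 3-nt shift at 23 acceptors, and the skipped exons lie highest at 47.1%.

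The name of the transcript changed along with the structure, but the names alone say little. All 891 junctions had more than 1 isoform name, and so did 73.2% of the 6101 junctions with 1 structure, where an assembled transcript often carried another number in another library. The switch was therefore read as Ensembl against assembled. At 331 junctions (37.1%) an Ensembl transcript named the majority structure and none named the second, and at 89 (9.99%) it was the reverse. One listing with an Ensembl name sufficed, and the majority structure has at least as many listings by definition. The ranking itself therefore favours the larger of these 2 counts. At 45 junctions Ensembl transcripts named both structures, and at 426 (47.8%) both rested on assembled transcripts alone. Ensembl transcripts named 31.3% of the library listings of majority structures, 12.8% of the listings of other structures and 38.1% of the listings of junctions with 1 structure. The flanking introns given with a junction also differed between libraries at 33.6% of the 891 junctions and at 16.6% of the other junctions in at least 2 libraries. In the class of 19 to 24 libraries these shares were 60.5% and 44.7%.

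Structures were alike within a library across overlapping circles. Of the 348 skipped exons, 88 differed at 2 or more junctions (at most 6). When 2 such junctions were listed in the same library, they agreed on whether the exon was present in 753 of 799 pairs (94.2%). When they were listed in different libraries, they agreed in 9128 of 14327 pairs (63.7%). The pairs share libraries and exons, so these shares are a description. An exon listed alike by several junctions of 1 library is thus not independent evidence of that exon in each circle.

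The most abundant junction of the set hardly varied in its exon structure. The junction of mmu_circ_019349 (chr9:64242316-64243110, minus strand, rheMac2) had 0 to 82 reads in young (median 38.5), 0 to 147 in middle-aged (median 31) and 16 to 87 in old monkeys (median 46). The age groups overlapped. Over its libraries the junction carried 8 isoform names and 7 different entries for the flanking introns. Of 973 reads, 98.5% were on a circle of 2 exons and 172 nt listed in 18 libraries. The other structure, in 1 middle-aged library with 15 reads, began its second exon at another acceptor and was 92 nt longer (264 nt). The junctions of mmu_circ_015458 (chr6:134285266-134289462) and mmu_circ_018321 (chr8:42216486-42217006) resembled it, with 98.3% of 544 and 97.3% of 439 reads on the majority structure. Their other structures differed by a donor 5 nt away and by a donor 75 nt away. At mmu_circ_008966 (chr17:20763128-20771180) an additional exon of 88 nt appeared in 1 middle-aged library with 20 of 423 reads.

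The junction of mmu_circ_009432 (chr18:14771495-14785401, plus strand) was found in all 24 libraries. Young libraries had 15 to 80 reads (median 30), middle-aged libraries 4 to 128 (median 22) and old libraries 5 to 63 (median 20), with the groups overlapping. Its circle of 5 exons and 679 nt, named by an Ensembl transcript, was listed in 19 libraries with 561 reads (67.7%). The circle without the third exon (chr18:14779663-14779767, 105 nt) was listed in 3 libraries with 218 reads and carries its own name, mmu_circ_009430. The circle that also lacked the second exon (chr18:14774656-14774785, 130 nt) was listed in 1 old library with 35 reads and is named mmu_circ_009429. In the remaining structure, in 1 young library with 15 reads, the third exon was absent and the second began 59 nt further in. This junction was thus listed without the exon of 105 nt in 5 of 24 libraries, of which 2 were young, 2 middle-aged and 1 old. Over all 10 junctions that span the exon, each of the 24 libraries listed it at least at 1 junction, those 5 included.

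A single exon set apart a pair of circles on chromosome 2. The junctions of mmu_circ_010392 (chr2:102990361-103021852) and mmu_circ_010390 (chr2:102990361-103015114) share their lower end, and had 677 and 523 reads. An exon of 123 nt (chr2:103011340-103011462) was present at both in the same 2 libraries, 1 middle-aged and 1 old. It was absent at both in all other libraries that listed them. In the middle-aged library the reads with the exon were 43 and 20, and in the old library 25 and 19. With the exon the larger circle is 1849 nt and named mmu_circ_010393, and without it 1726 nt.

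On chromosome 9, cassette exons were combined in several ways. The junction of mmu_circ_018901 (chr9:138316-178337, plus strand) had 473 reads in 24 libraries, 8 to 35 in young (median 19.5), 2 to 64 in middle-aged (median 8) and 6 to 35 in old monkeys (median 17). The groups overlapped. The circle of 3 exons and 457 nt was listed in 15 libraries and held 49.7% of the reads. The other 5 structures added an exon of 116 nt (chr9:147174-147289), an exon of 95 nt (chr9:155970-156064) or both, and in 2 of them an exon of 45 nt (chr9:175427-175471). The structure with both larger exons, mmu_circ_018905, had 92 reads in 2 libraries, and that with the exon of 95 nt alone, mmu_circ_018902, had 63 reads in 3 libraries. The smaller circle from the same start (chr9:138316-167118) varied at the same exons. It had 73 reads in 21 libraries, with 27 reads on the circle of 2 exons (295 nt, 9 libraries) and 26 on that with the exon of 95 nt (390 nt, 8 libraries). Its circle with both exons (506 nt) was listed in 3 libraries, so structures in at least 3 libraries each differed by up to 211 nt.

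The junctions with at least 7 structures lie on chromosomes 8, 6, 15 and 4. One on chromosome 8 (chr8:125666461-125704810, plus strand) had 9 structures for 68 reads in 18 libraries, and its majority structure, of 12 exons and 1547 nt, held 27.9% of the reads in 5 libraries. The circles were 1018 to 1694 nt long. The second exon was listed in 3 lengths that share their end, of 74, 151 and 221 nt, and was absent in others. Over the 10 junctions of the 24 libraries that span it, the form of 74 nt was found in 0 of 6 young, 4 of 10 middle-aged and 1 of 7 old libraries. The form of 221 nt was found in 2 of 6 young libraries and in none of 10 middle-aged and 7 old libraries. The form of 151 nt was found in 3 of 6 young, 4 of 10 middle-aged and 2 of 7 old libraries. The exon was singled out after its values were seen, and these library counts were not tested. The shorter circle from the same start (chr8:125666461-125685356) had 6 structures, of which the most frequent held 23.7% of 76 reads, and structures in at least 3 libraries each differed by up to 267 nt.

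On chromosome 6 the junction of mmu_circ_015376 (chr6:130728400-130743416, minus strand) had 8 structures for 147 reads in 18 libraries. The majority structure, of 5 exons and 599 nt, was listed in 7 libraries and held 34.0% of the reads. The second lacked an exon of 94 nt (chr6:130730618-130730711, 4 libraries, 22 reads) and the third an exon of 89 nt (chr6:130736719-130736807, 2 libraries, 30 reads). The largest had 7 exons and 1082 nt, was named by an Ensembl transcript, and was listed in 1 young library with 4 reads. The same exons differed at 2 larger circles with 7 structures each (chr6:130724321-130743416 and chr6:130724321-130785373), which had 74 and 23 reads. On chromosome 15 (chr15:27102807-27162108) 7 structures shared 57 reads in 15 libraries. An exon of 117 nt (chr15:27118880-27118996), one of 24 nt (chr15:27126428-27126451) and an acceptor shift of 35 nt accounted for all of them together with an exon of 154 nt (chr15:27152146-27152299) in 1 library. The other 2 junctions with 7 structures had 26 reads in 11 libraries (chr4:71769329-71783158) and 54 reads in 15 libraries (chr8:125666461-125696610).

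**Figure D3:**
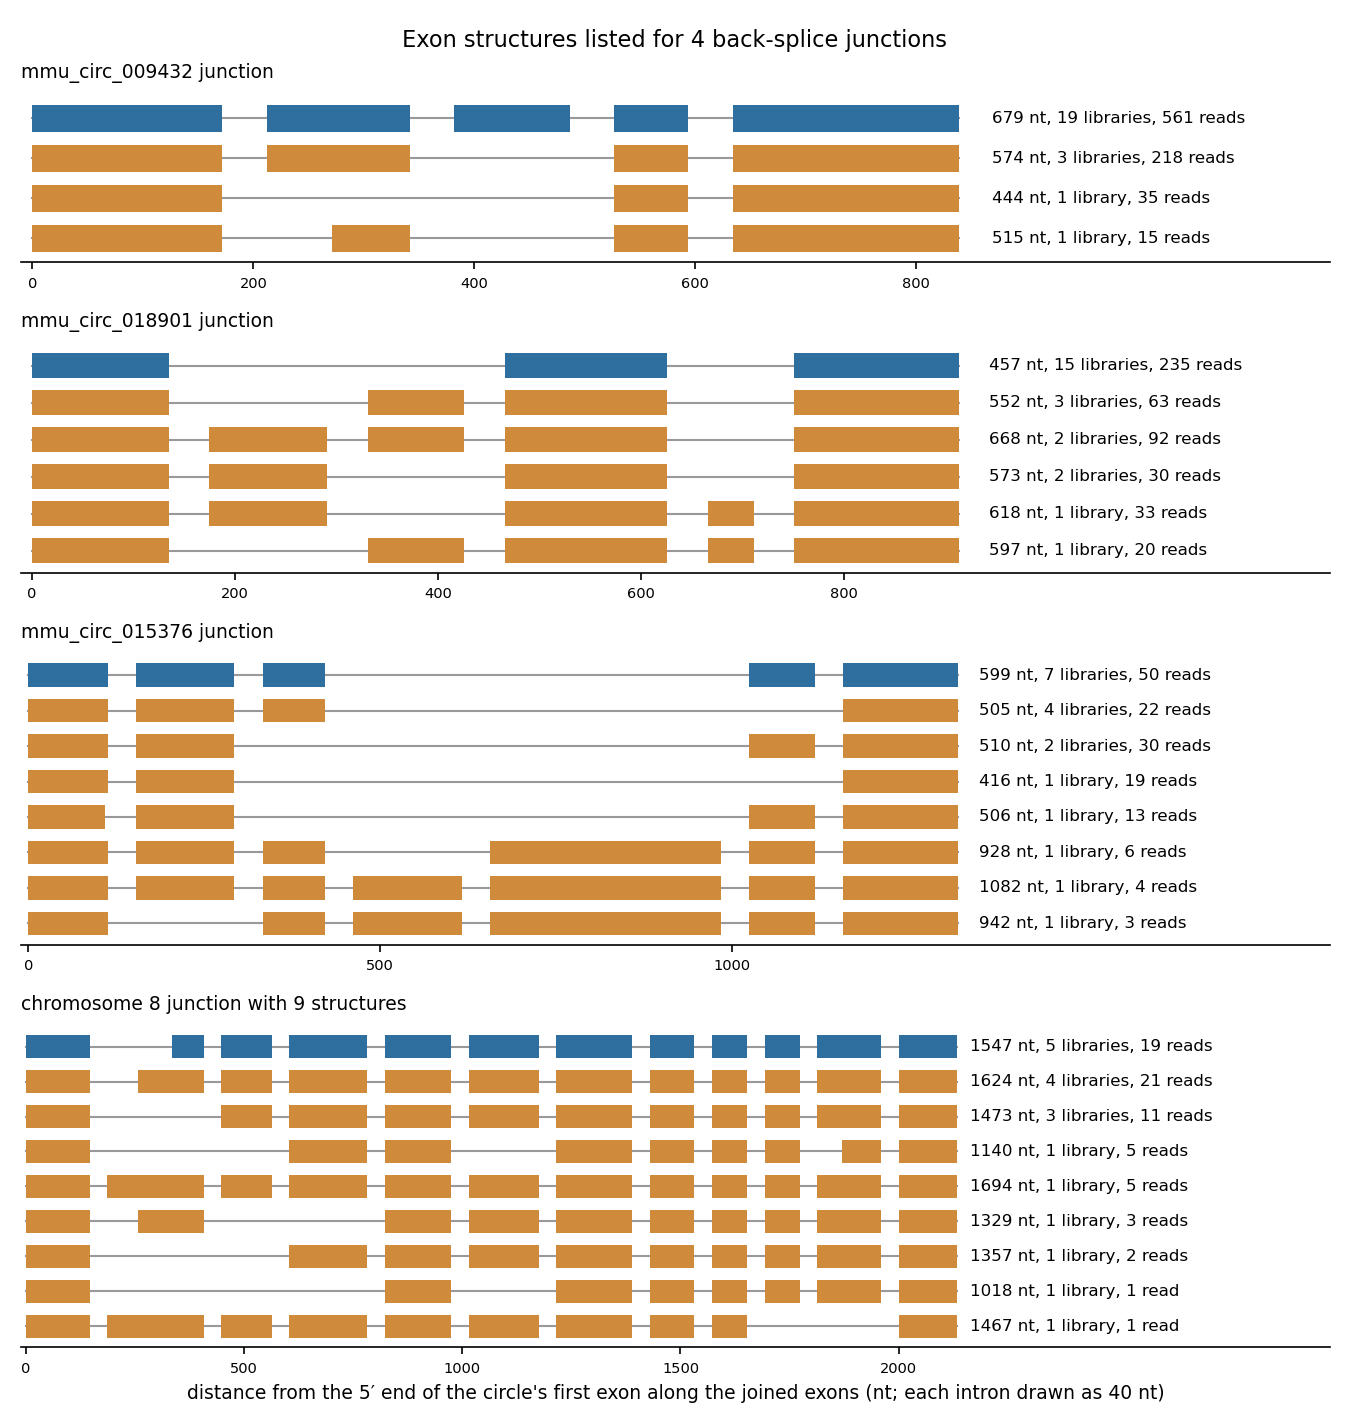
Boxes are exons drawn to scale along the joined exons of 4 junctions (nt, transcript direction from left to right), with every intron drawn as 40 nt, the majority structure in blue and the others in orange. At mmu_circ_009432 the 5-exon circle stands in 19 libraries, while the lowest map shows 9 structures, none in more than 5 libraries.

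Among the 8 circRNAs that were measured by RT-qPCR in the study, 1 had a junction in the set. The junction of mmu_circ_014509 (chr5:140155343-140181652, plus strand) had 143 reads in 21 libraries, 3 to 18 in young (median 8), 0 to 12 in middle-aged (median 3) and 0 to 13 in old monkeys (median 8), with overlapping groups. The circle of 488 nt held 78.3% of the reads in 17 libraries. The circle of 444 nt, with a donor 40 nt and an acceptor 4 nt away, had 26 reads in 1 library of each age group, and that of 448 nt had 5 reads in 1 middle-aged library. For mmu_circ_014509 the study reported a decline with age in its normalized sequencing reads, and then by RT-qPCR on total RNA. Its PCR also gave a larger band, possibly another isoform or a nonspecific product by the study's account. The edgeR comparison below used reads from RNA digested with RNase R, summed over all structures of the junction and scaled by total junction reads. There the junction's log2 fold change was -0.34 in old against young (edgeR adjusted p = 0.953). In middle-aged against young it was -0.54 (edgeR adjusted p = 0.916). Large differences with support in several libraries were also seen at chr14:72383265-72383983, where 6 libraries listed 2 exons (196 nt) and 3 libraries the unspliced stretch of 719 nt. Another 4 libraries listed 2 exons of 187 nt in all, so structures in at least 3 libraries each were up to 532 nt apart. At chr5:46090228-46095713, 8 libraries listed 551 nt and 4 libraries a circle without an exon of 201 nt.

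**Figure D4:**
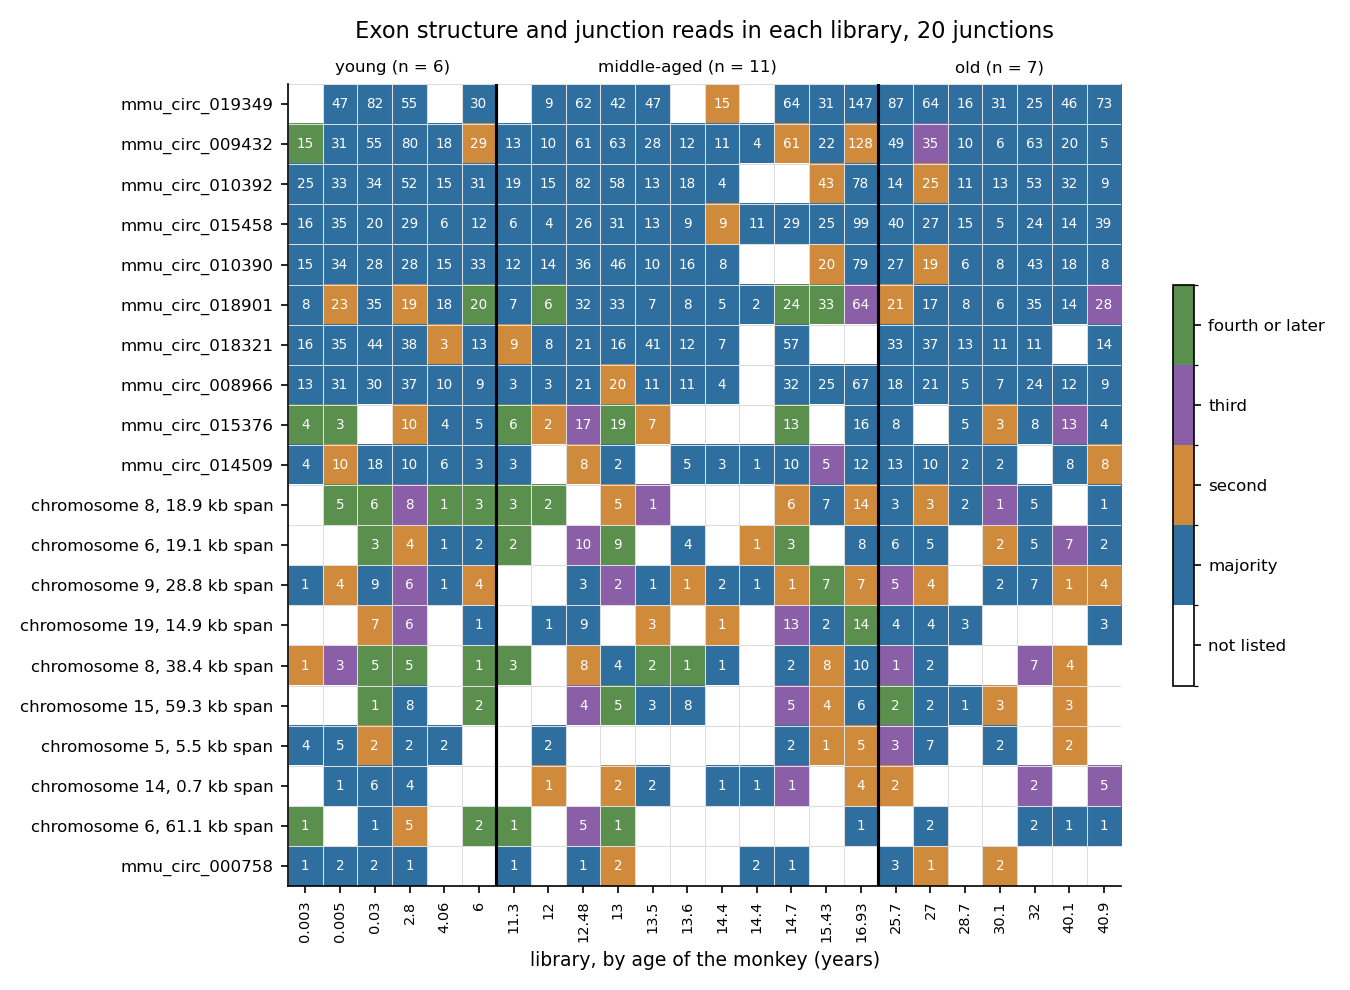
Each row is 1 of 20 named junctions, ordered by reads, and each column 1 of 24 libraries, ordered by age (years) within the young, middle-aged and old groups; colour gives the exon structure listed and the number its junction reads. The uppermost rows are mostly the majority structure, as at mmu_circ_019349 with 98.5% of its reads, and the colours of lower rows change from library to library within each age group.

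Whether the structures go with age was asked first for each library as a whole. The reads of the 891 junctions that were not on the majority structure made up 21.6% ± 7.55 (SD, n = 6, 15.0 to 32.1%) in young, 21.6% ± 7.57 (n = 11, 9.62 to 35.0%) in middle-aged and 19.8% ± 4.63 (n = 7, 11.3 to 24.7%) in old monkeys. The ranges overlapped widely. The old minus young difference was -1.82 percentage points (exact permutation test, two-sided, p = 0.608, adjusted p = 0.978 over 2 comparisons). The middle-aged minus young difference was -0.07 percentage points (exact permutation test, two-sided, p = 0.978, adjusted p = 0.978). Both differences were smaller than the SD within a group.

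The share was also set against the junction reads of the library. Over the 24 libraries Pearson's r was 0.29 (permutation p = 0.168) and Spearman's rho 0.36 (permutation p = 0.0844), and r was 0.36 without the 2 libraries farthest from the median. With each library's own listing left out when the majority was chosen, r was 0.36 and rho 0.44 (permutation p = 0.031). Within the age groups r was -0.14 in young, 0.36 in middle-aged and 0.73 in old monkeys (exact permutation p = 0.0611 for old). After adjustment over the 6 relations computed, the lowest permutation p was 0.206 for r and 0.127 for rho.

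**Figure D5:**
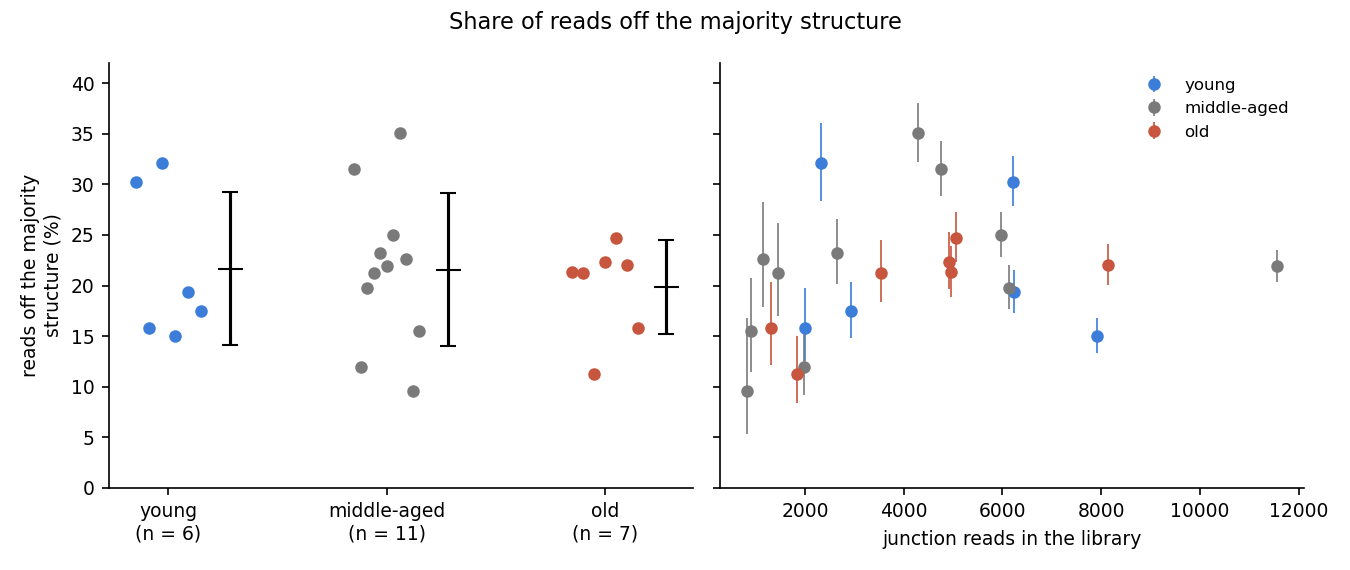
Each point is 1 library, with the share (%) of its reads on the selected junctions that were not on the majority structure. Left, by age group with the mean and SD beside the points; right, against the junction reads of the library, with 95% Wilson intervals. The young libraries lie between 15.0% and 32.1%, within the range of the middle-aged libraries, 9.62% to 35.0%.

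Single junctions were then compared by the number of libraries on the majority structure and on any other structure. This could be done for the 80 junctions listed in at least 12 libraries with at least 2 libraries on another structure. No junction passed in old against young (0% of those tested) or in middle-aged against young (0%) by Fisher's exact test with Benjamini-Hochberg adjustment, with a lowest adjusted p of 1 in both. Unadjusted p under 0.05 was reached by 0 junctions in the first and by 1 in the second. That one, chr17:39523708-39558770, had the majority structure in 7 of 7 middle-aged and 2 of 5 young libraries (Fisher's exact test, p = 0.0455). The library numbers allowed an unadjusted p under 0.05 at 28 of the 80 junctions for old and 43 for middle-aged monkeys.

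The 6 junctions with the lowest p in old against young, of which the last 4 tie, were thinly covered, with a median of 0 to 4 reads in every age group. At chr8:125666461-125685356 the majority structure was listed in 4 of 6 old and 0 of 5 young libraries (Fisher's exact test, p = 0.0606, adjusted p = 1). At chr14:72383265-72383983 it was listed in 0 of 3 old and 3 of 3 young libraries (Fisher's exact test, p = 0.1). The junction of mmu_circ_000758 (chr1:150223357-150225994) had it in 1 of 3 old and 4 of 4 young libraries. The other 3 had it in a larger share of old libraries, in 4 of 4 against 1 of 3 at chr19:36433319-36448213, in 4 of 4 against 1 of 4 at chr6:130724321-130785373 and in 4 of 4 against 1 of 3 at chr6:130736719-130785373 (Fisher's exact test, p = 0.143 for each of these 4). None of these differences passed adjustment.

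The amount of reads at these junctions, summed over their structures, was compared between the age groups by edgeR's quasi-likelihood test. In all, 258 junctions reached 2 reads in 12 or more libraries. Of these, 84 had several structures, and these 84 passed the filter through their abundance. The test called 0 of the 84 in old against young, 0 in middle-aged against young and 0 in old against middle-aged monkeys, where it called 0%, 0% and 0.388% of all junctions tested. An unadjusted p under 0.05 was reached by 5, 3 and 5 of the 84. Over all 258 junctions it was reached by 8 with lower and 6 with higher reads in old against young. The counts were 6 lower and 13 higher in middle-aged against young, and 15 lower and 3 higher in old against middle-aged. DESeq2 also called 0 of the 84 in each comparison. By its own normalized read counts the study reported a subset of circRNAs that declined with age, mmu_circ_014509 among them. Median log2 fold changes of the 84 were -0.16, 0.11 and -0.18, beside -0.07, 0.04 and -0.11 over all junctions tested. The medians depended on the scaling. With TMM normalization the medians over all junctions were -0.09, -0.16 and 0.09, and those of the 84 were -0.18, -0.13 and -0.0011. The standard errors of the log2 fold changes had medians of 0.68, 0.63 and 0.62.

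The lowest adjusted p was that of the junction of mmu_circ_008860 (chr17:11887392-11897424), named after its values were seen. It had 0 to 7 reads in young (median 0), 0 to 35 in middle-aged (median 5) and 0 to 25 in old monkeys (median 6). Reads were listed in 2 of 6 young, 8 of 11 middle-aged and 5 of 7 old libraries, and the groups overlapped. The log2 fold change of middle-aged against young was 2.79 ± 0.77 (SE, edgeR adjusted p = 0.0727) and that of old against young 2.46 ± 0.80 (edgeR adjusted p = 0.563). In middle-aged against young, the lowest edgeR adjusted p among the 84 depended on the setting. It was 0.191 with TMM, 0.298 without the young monkeys under 1 year and 0.0433 with only the 2 groups in the fit. With DESeq2 the lowest adjusted p was 0.17. Of its 15 libraries, 14 listed a circle of 438 nt and 1 middle-aged library a circle without an exon of 89 nt (349 nt).

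The in-depth libraries, which the rule did not use, showed how often the majority structure returned. The young in-depth library listed 629 of the 891 junctions, 434 (69.0%, exact 95% interval 65.2 to 72.6) with the majority structure, 145 (23.1%) with another known structure and 50 (7.95%) with one not listed in the 24 libraries. The old in-depth library listed 536, of which 382 (71.3%, 67.2 to 75.1) had the majority structure, 126 (23.5%) another known structure and 28 (5.22%) a structure not listed before. At junctions with 1 structure in the 24 libraries, a structure not listed before was found in 2.93% of 3784 and 2.86% of 3187. Both in-depth libraries listed 451 of the 891 junctions, and gave the same structure for 319 (70.7%).

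The in-depth libraries did not match best the library of the same age. The young in-depth library shared 298 of the junctions with the 24-library monkey aged 0.005 years and had the same structure at 59.1% of them, which was the 23rd highest of the 24 values (56.3 to 72.2%). The old in-depth library had the same structure as the library of the monkey aged 40.1 years at 65.2% of 184 junctions, the 15th highest of 24 values (57.6 to 77.3%). The study's results call the in-depth samples additional, its methods leave it unclear, and whether they share RNA with the libraries of the same age was not tested. At the named junctions both in-depth libraries gave the 5-exon circle of mmu_circ_009432, with 206 reads in the young and 234 in the old library. At mmu_circ_018901 they differed, with the circle of 457 nt in the old library (117 reads) and that of 573 nt in the young library (176 reads).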

How the data were processed

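The authors digested total RNA of vastus lateralis with RNase R, aligned paired-end reads to rheMac2 with TopHat2 (2.0.14, with Bowtie2 2.2.4 among the tools of the submitters' processing notes), assembled transcripts with Cufflinks 2.2.1 and called circRNAs with CIRCexplorer against Ensembl and assembled transcripts. The deposited values are whole-number counts of junction reads, not normalized, with the type, exons and transcript of each circRNA. The reads were not analysed here.

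Start, end and strand defined a junction, and a junction not listed was given 0 reads. Coordinates are for rheMac2 and counted from 1. Exon lists of the majority and the second structure were compared in transcript direction. Shares carry 95% Wilson intervals unless called exact; intervals cover counting error only, since reads had no molecular identifiers. With 822 to 11561 junction reads in a library, 3 reads stand for 0.0259% to 0.365%.

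Monkeys were the replicates. Age groups were compared by exact permutation and Fisher's exact tests (scipy 1.17.1) and by edgeR 4.0.16 in R 4.3.3 (quasi-likelihood, robust, the 3 groups in 1 fit, total junction reads as library size, Benjamini-Hochberg at 0.05). DESeq2 1.42.0, TMM normalization, other filters and other definitions of a structure were alternatives. The comparison of exon lists and the Benjamini-Hochberg adjustment were checked on made-up examples. The edgeR step was checked on simulated counts with a planted change far larger than the median changes observed. Python 3.11.15, pandas 2.3.3, numpy 2.4.6 and matplotlib 3.10.9 were used.

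Junctions named were the 8 with the most reads, those of circRNAs measured by RT-qPCR, the 4 with the most structures (ties by reads), the 4 with the largest length difference between structures in at least 3 libraries each, the 5 with the lowest Fisher p in old against young (ties by name), and any past the edgeR threshold or with both exonic and intronic structures, of which there were none. Junctions tied with the last of the 4 or of the 5 were added after their values were seen. The junctions and the rules were chosen with earlier results of these data known. The names mmu_circ were matched by position and spliced length. Host genes and sequences are not reported here, because no genome or table that pairs these transcripts with genes was used, and so muscle marker genes were not checked.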

Additional observations from a re-analysis of the deposited data

Results flagged for a closer look

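The share of a library's junction reads at the 20 named junctions was searched for a monkey that stands apart within the young or the old group, which chance alone gives in about 1 of 20 groups. At chr2:102990361-103015114 (mmu_circ_010390) the young monkey aged 6 years had 1.42% of its junction reads (33 reads), against 0.354% to 0.752% in the other 5. At chr8:42216486-42217006 (mmu_circ_018321) the young monkey aged 4.06 years stood low with 0.15% (3 reads), against 0.546% to 0.61%, and it is 1 of the 2 libraries that list the structure with the donor 75 nt away.

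In the old group, the monkey aged 30.1 years stood high at chr15:27102807-27162108 with 0.228% (3 reads, the others 0% to 0.0845%) and at chr1:150223357-150225994 with 0.152% (2 reads, the others 0% to 0.0368%). That library had 1317 junction reads, the fewest of the old group. The old monkey aged 40.9 years stood high at chr14:72383265-72383983 with 0.102% (5 reads, the others 0% to 0.0396%), and its 5 reads were listed with the unspliced stretch of 719 nt.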

How the results depend on the processing

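The number of junctions depended most on the support asked of a structure. It was 208 with each structure in at least 2 libraries, 414 with at least 2 reads each, 1390 with the in-depth libraries added, 782 with boundaries within 10 nt merged and 712 without the young monkeys under 1 year. With structures in at least 2 libraries, skipped exons made up 52.9%, multiples of 3 made up 61.5%, an Ensembl transcript on exactly 1 structure 52.9% (47.1% over all 891), and the median length difference was 58 nt. Over every pair of structures a moved boundary made up 25.1%, multiples of 3 made up 48.7%, an Ensembl transcript on exactly 1 structure 39.9%, and the median difference was 81 nt. With 2 reads per structure, 51.0% had an Ensembl transcript on exactly 1. The middle-aged minus young difference in the share of reads off the majority structure turned positive with the majority chosen by reads (0.68 percentage points), in junctions of at least 5 libraries (0.32) and without the 6 smallest libraries (2.34). The in-depth libraries gave the majority structure at 74.9% (young) and 78.3% (old) of the junctions in at least 5 libraries.

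The edgeR test called junctions with several structures under 2 alternatives. With a filter of at least 10 reads in total, which raised the junctions tested to 1552 (339 of them with several structures), it called 5 in old against young (1.47% of them, beside 1.1% of all junctions tested), 9 in middle-aged against young (2.65%, beside 1.55%) and 5 in old against middle-aged (1.47%, beside 1.61%). With only the 2 groups compared in the fit, it called 1 in middle-aged against young, with adjusted p = 0.0433, out of 2 called among all 258. The cause was not tested. TMM, DESeq2, single structures as features and leaving out the young monkeys under 1 year gave 0 calls among these junctions, and Fisher's exact test gave 0 under its 3 alternatives. Of 65 results under alternatives, 44 were counted as kept. These kept their direction and their call, stayed within the spread or the counting interval, or met a looser limit for counts of junctions. The 782 and 712 junctions, against 891, were counted as kept by that looser limit. Depth limits what a library can list, with few reads at most junctions. Apart from depth, the deposited listing gives only 1 structure per junction and library, also in the in-depth libraries. No paired analysis was possible because the age groups are different monkeys.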

Other observations

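Among all libraries, the young monkey aged 0.005 years listed the largest share of the selected junctions with a structure other than the majority structure, 39.9% of 338 junctions, with the other 23 libraries between 17.5% and 32.7%. By reads its share was 30.3%, below the 35.0%, 32.1% and 31.5% of the monkeys aged 15.43, 6 and 14.7 years. It also had the lowest or second lowest share of structures in common with the in-depth libraries, 57.6% with the old and 59.1% with the young in-depth library. Its 6203 junction reads lay within the range of the other young libraries.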
